A study of Homo sapiens with 4 samples.

Results

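The genes of 10 hematopoietic growth factor receptors, CSF1R, CSF2RA, CSF2RB, CSF3R, IL3RA, KIT, FLT3, EPOR, IGF1R and PDGFRB, were followed in 4 RNA-seq libraries from leukemia cells exposed to the cardiac glycoside periplocin. They were found by mapping the Ensembl identifier of each row of the count table to a gene symbol, and all 10 were present among 20330 genes. K562 is an erythroleukemic line established from a chronic myeloid leukemia in blast crisis and carries the BCR-ABL1 fusion kinase, and THP-1 is a monocytic line derived from a patient's acute monocytic leukemia. Both were kept for 72 h either in DMSO, the vehicle, or in 100 nM periplocin, a compound of the plant Cortex periplocae, with no other genetic change or agent given for any group. Each of the 4 conditions was a single library and a single biological replicate. No difference below therefore has a replicate check. Every interval and standard error (SE) covers counting error only and compares libraries, not conditions. The same holds for every p-value except those from the fit over the 4 libraries and from dispersions that were set, both described below. The RNA was from whole cultures, so fewer cells of a kind and less RNA per cell cannot be told apart.

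The library totals lay between 16381158 and 20622681 counts. Mitochondrially encoded genes took 5.62% of the counts in K562 DMSO, 2.07% in K562 periplocin, and 5.24% and 3.92% in the corresponding THP-1 libraries. A gene with 3 counts or fewer was taken as being at the floor, which corresponded to 0.145 to 0.183 counts per 1000000 counts of the library (CPM). The lines matched their labels by the marker genes listed for them. Of 12 erythroid markers, all were above the floor in both K562 libraries, and their summed level was 2796 CPM in K562 DMSO against 251 CPM in THP-1 DMSO, where 6 markers, including GATA1, KLF1 and ALAS2, were at the floor. Nearly all of the THP-1 sum came from TFRC, the transferrin receptor gene, at 246 CPM. Of 11 monocyte and macrophage markers, 10 were above the floor in THP-1 DMSO with a summed level of 716 CPM, against 115 CPM in K562 DMSO, and the one at the floor was CD163, a scavenger receptor of macrophages. In K562 DMSO, 4 of the 11 were at the floor.

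Growth factor receptors tell blood cells whether to survive, divide or mature. EPOR, CSF3R and the chains CSF2RA, IL3RA and CSF2RB are type I cytokine receptors, which have no kinase of their own and signal through Janus kinases, of which JAK2 is the main one for EPOR and CSF2RB, to STAT5 and related factors. CSF2RA and IL3RA bind GM-CSF and IL-3, and both need the common beta chain CSF2RB to signal. CSF1R, KIT, FLT3 and PDGFRB are class III receptor tyrosine kinases and carry their own kinase domain, and IGF1R is the receptor tyrosine kinase of the insulin-like growth factors. EPOR serves red cell precursors, CSF3R neutrophils and their precursors, CSF1R monocytes and macrophages, and KIT and FLT3 early progenitors, while PDGFRB is best known from stromal and vascular cells.

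The sequences just before the start sites of the receptor genes bear on their lineage use, since PU.1, GATA and RUNX factors are known to act at myeloid and erythroid receptor promoters. A table of RefSeq promoters on GRCh38.p14 held 11 start sites of 9 of the genes and none of CSF2RB. The 250 bases before each start were searched on both strands for GAGGAA, the core of the PU.1 motif, AGATAA, which is bound by GATA factors, and TGTGGT, which is bound by RUNX factors. The first of these was found before 1 start site each of CSF1R, CSF2RA, CSF3R and FLT3, which is 4 of 11 windows against 23.6% of 35114 windows of all genes. AGATAA was found before EPOR alone, 1 of 11 windows against 9.17% of all windows, and TGTGGT in the same CSF1R window, 1 of 11 against 11.0%. The 5 windows that held a match are printed 5′ to 3′ on the strand of the gene, each ending at the base before the start site, with the matched letters in capitals.
CSF1R (chr5:150086555-150086804, minus strand): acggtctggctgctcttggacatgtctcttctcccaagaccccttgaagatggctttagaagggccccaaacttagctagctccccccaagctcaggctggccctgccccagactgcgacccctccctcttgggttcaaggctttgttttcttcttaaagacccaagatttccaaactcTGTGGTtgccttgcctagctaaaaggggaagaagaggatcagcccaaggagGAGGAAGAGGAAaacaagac
CSF2RA (chrX:1268564-1268813, plus strand): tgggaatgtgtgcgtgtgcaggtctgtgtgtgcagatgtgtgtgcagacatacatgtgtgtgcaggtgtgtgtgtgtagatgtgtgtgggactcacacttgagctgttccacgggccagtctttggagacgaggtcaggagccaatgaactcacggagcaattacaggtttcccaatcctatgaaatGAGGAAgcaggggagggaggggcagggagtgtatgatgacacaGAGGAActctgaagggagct
CSF3R (chr1:36482914-36483163, minus strand): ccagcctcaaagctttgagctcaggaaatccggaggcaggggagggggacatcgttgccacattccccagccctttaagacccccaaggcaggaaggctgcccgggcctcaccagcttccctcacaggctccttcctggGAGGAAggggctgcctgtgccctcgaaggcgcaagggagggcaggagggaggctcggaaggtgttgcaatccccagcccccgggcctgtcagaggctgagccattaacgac
FLT3 (chr13:28100577-28100826, minus strand): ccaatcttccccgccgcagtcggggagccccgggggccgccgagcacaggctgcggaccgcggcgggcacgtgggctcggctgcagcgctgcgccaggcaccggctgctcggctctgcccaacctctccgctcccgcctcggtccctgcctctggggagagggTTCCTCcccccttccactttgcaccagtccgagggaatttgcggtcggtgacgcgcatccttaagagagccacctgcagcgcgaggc
EPOR (chr19:11384315-11384564, minus strand): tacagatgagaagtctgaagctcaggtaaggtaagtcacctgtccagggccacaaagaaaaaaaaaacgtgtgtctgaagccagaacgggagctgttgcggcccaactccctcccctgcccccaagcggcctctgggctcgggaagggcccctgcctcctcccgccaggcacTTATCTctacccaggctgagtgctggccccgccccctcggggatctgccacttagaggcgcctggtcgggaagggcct

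In CSF1R, 2 PU.1 core matches lie directly next to each other, their first bases 20 and 14 bases before the start, and the RUNX match lies 71 bases before it. The CSF2RA matches lie 63 and 20 bases before the start, and that of CSF3R lies 111 bases before it. The FLT3 match is on the opposite strand, as TTCCTC, 87 bases before the start, and the EPOR match is also on the opposite strand, as TTATCT, 78 bases before it. A match of 6 letters is a description of the sequence and does not show that a factor binds there.

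The first question was which receptors each line expressed without the drug. In the DMSO libraries, 8 of the 10 genes were higher in THP-1 than in K562 and 2, EPOR and IGF1R, were lower. All 10 passed the edgeR exact binomial test at an adjusted p under 0.05 with at least a 2-fold difference. Of all 16410 genes tested in this comparison, 41.2% passed the same rule, 21.7% as higher and 19.5% as lower in THP-1, and 52.5% differed by at least 2-fold whatever their p.

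The monocyte receptor gene CSF1R (chr5:150053291-150113372, minus strand, GRCh38) had 3086 counts, or 149.6 CPM, in THP-1 DMSO and 3 counts in K562 DMSO, a ratio of 889 (95% interval 304 to 4312). FLT3 (chr13:28003274-28100592, minus strand) had 2175 counts in THP-1 and 0 in K562, and was at least 626-fold higher in THP-1 against a floor of 3 counts per library. CSF3R (chr1:36466043-36483278, minus strand) had 2315 counts in THP-1 and 84 in K562, a ratio of 23.8 (19.2 to 30.0 counting interval). These were the genes with the most counts among the 10 in THP-1 DMSO, at between 105 and 149.6 CPM, and of them only CSF3R was above the floor in K562.

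The chains of the GM-CSF and IL-3 receptors followed the same division between the lines. CSF2RA (chrX:1268800-1310381, plus strand) had 689 counts in THP-1 and 1 in K562, a ratio of 595 with an interval from 106 to 23547. The shared chain CSF2RB (chr22:36913628-36940449, plus strand) had 1087 counts in THP-1 and 5 in K562, a ratio of 188 (80.2 to 580). IL3RA (chrX:1336616-1382689, plus strand) had 213 counts in THP-1 and 0 in K562 and was at least 61.3-fold higher in THP-1. Both CSF2RA and IL3RA lie in the pseudoautosomal region shared by the X and Y chromosomes, and the count table listed each of them in 2 rows, one for each chromosome, with the same values in both. There were 18 such pairs of rows in the table. Of 61 nonzero values in one row of a pair, 33 ended in 0.5, against 0.172% of the nonzero values of other genes, and 53 gave a whole number when both rows were added. The rows were therefore summed as parts of 1 count. The counting program is not given in the sources used here. If each row held the full count, the levels of CSF2RA and IL3RA and the bound for IL3RA would be too high. Their intervals would be too narrow and their p-values too small, while their fold changes would stay the same.

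KIT, the stem cell factor receptor (chr4:54657918-54740715, plus strand), differed less, with 291 counts in THP-1 and 47 in K562, a ratio of 5.35 (3.92 to 7.44). PDGFRB (chr5:150113837-150155872, minus strand) is annotated to end 464 bp before the start of the neighboring CSF1R, on the same strand. It had 31 counts in THP-1 and 1 in K562, a ratio of 26.8 whose interval runs from 4.46 to 1092. It was therefore the least abundant of the 10 genes in THP-1, at 1.50 CPM.

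EPOR (chr19:11377205-11384342, minus strand) had 305 counts, 18.6 CPM, in K562 and 143 counts, 6.93 CPM, in THP-1, and was 2.47-fold lower in THP-1 (2.02 to 3.03). Its exons share 2 bp with RGL3 on the same strand, a gene with 30 to 86 counts per library. IGF1R (chr15:98648539-98964530, plus strand) had 1036 counts, 63.2 CPM, in K562 and 106 counts, 5.14 CPM, in THP-1, and was 11.3-fold lower in THP-1 (9.26 to 13.9). The K562 library was thus marked by EPOR and IGF1R, and 5 of the other genes (CSF1R, CSF2RA, IL3RA, FLT3 and PDGFRB) were at the floor in it.

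**Figure D1:**
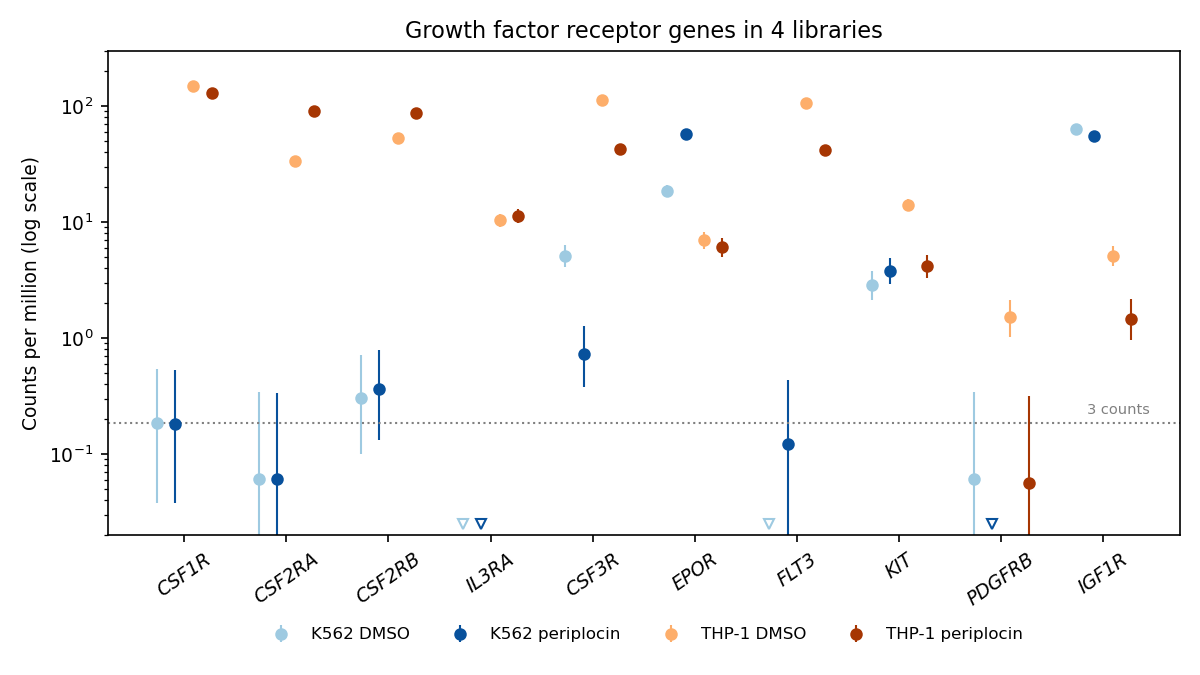
CPM (log axis) of the 10 receptor genes in each library, with exact 95% counting intervals as bars. Triangles at the bottom mark libraries with 0 counts and the dotted line the highest floor of 3 counts; in K562, 5 genes lie at or below that line, while in THP-1 DMSO all 10 lie above it.

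The second question was how periplocin changed these genes in THP-1. In the periplocin library, 1 of the 10 genes, CSF2RA, was higher and 5, CSF3R, FLT3, KIT, IGF1R and PDGFRB, were lower by the same test. Over all 16000 genes tested in THP-1, 18.0% passed it, 8.26% as higher and 9.77% as lower, and 29.9% differed by at least 2-fold whatever their p. Of the remaining 4 genes, CSF2RB and CSF1R had an adjusted p under 0.05 but moved by less than 2-fold, and IL3RA and EPOR had neither.

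Of the GM-CSF and IL-3 receptor chains, CSF2RA was the one that passed. CSF2RA had 689 counts, 33.4 CPM, in DMSO and 1603 counts, 90.5 CPM, in periplocin, a ratio of 2.73 (95% interval 2.49 to 2.99), a log2 fold change of 1.45 (SE 0.07) and an adjusted p of 6.3e-117 by the edgeR exact binomial test. CSF2RB had 1087 counts, 52.7 CPM, in DMSO and 1554 counts, 87.7 CPM, in periplocin, a ratio of 1.68 (1.55 to 1.81) that stayed under 2-fold. IL3RA, the chain specific to IL-3, had 213 counts, 10.3 CPM, and 199 counts, 11.2 CPM, a ratio of 1.10 with an interval from 0.899 to 1.34. The chain that binds GM-CSF thus had the largest difference of these chains, and for the chain that binds IL-3 the interval leaves room for a difference of no more than 1.34-fold.

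The level of one chain relative to another can be read inside each library, where scaling between libraries plays no part. Per kb of exon, the level of CSF2RA was 0.828 times that of CSF2RB in DMSO and 1.35 times in periplocin, a change of the ratio by 1.63 (95% counting interval 1.45 to 1.83). For IL3RA against CSF2RB the ratio of levels went from 0.573 to 0.374, a change of 0.654 (0.531 to 0.805). For CSF2RA against IL3RA it went from 1.44 to 3.60, a change of 2.49 (2.01 to 3.08). The alpha chains therefore moved apart from each other relative to the beta chain that they share. The ratios themselves depend on the length used for each gene, and with the longest transcript in place of all exons that of CSF2RA to CSF2RB was 1.35 in DMSO and 2.19 in periplocin, while the change between the libraries is the same by construction. The ratios to CSF2RB also depend on the summing of the paired rows of CSF2RA and IL3RA, whereas their changes do not.

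CSF3R, the G-CSF receptor, had 2315 counts, 112 CPM, in DMSO and 758 counts, 42.8 CPM, in periplocin. It was 2.60-fold lower (2.40 to 2.83), a log2 fold change of -1.38 (SE 0.06) with an adjusted p of 2.3e-130 by the edgeR exact binomial test. EPOR, the remaining cytokine receptor, had 143 counts, 6.93 CPM, and 107 counts, 6.04 CPM, a ratio of 0.878 with an interval from 0.677 to 1.14. Within the type I cytokine receptors, therefore, 1 gene was higher, 1 was lower and 3 did not pass.

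Among the class III receptor tyrosine kinases, FLT3 had 2175 counts, 105 CPM, in DMSO and 744 counts, 42.0 CPM, in periplocin, and was 2.49-fold lower (2.29 to 2.71, edgeR exact binomial test, adjusted p = 3.8e-114). KIT had 291 counts, 14.1 CPM, and 74 counts, 4.18 CPM, and was 3.35-fold lower (2.59 to 4.39, adjusted p = 9.1e-24 in the same edgeR test). PDGFRB fell from 31 counts to 1, a ratio of 0.0378 whose interval runs from 0.000929 to 0.227 (adjusted p = 2.5e-07 in the edgeR test). With a prior count of 2, the log2 fold change of PDGFRB was -3.31 in place of -4.57, and a filter at 1 CPM left it untested and the calls at 5. All 3 of these progenitor or stromal receptor genes were lower in the treated library, and PDGFRB reached the floor there.

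CSF1R, the fourth of this class, had 3086 counts, 149.6 CPM, in DMSO and 2286 counts, 129 CPM, in periplocin. Its ratio was 0.869 (0.823 to 0.918), and with an adjusted p of 9.6e-07 in the edgeR test it was lower by counting error but far from the 2-fold threshold. Against CSF1R in the same library, the level of FLT3 per kb was 0.873 in DMSO and 0.403 in periplocin, a change of 0.462 (0.418 to 0.510). The level of CSF3R against that of CSF1R was 0.458 and 0.203, a change of 0.442 (0.401 to 0.488). The monocyte receptor was therefore kept more nearly at its level than the granulocyte and progenitor receptors were.

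IGF1R, which had the lowest THP-1 level of the 10 genes per length except for PDGFRB, had 106 counts, 5.14 CPM, in DMSO and 26 counts, 1.47 CPM, in periplocin. It was 3.48-fold lower (2.25 to 5.56), a log2 fold change of -1.79 (SE 0.32) with an adjusted p of 1.2e-09 in the edgeR test.

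The monocyte and macrophage markers moved in the same library as these receptors. Their summed level was 716 CPM in THP-1 DMSO and 1161 CPM in THP-1 periplocin, with 6 of 11 higher and 1, the granule enzyme gene MPO, lower. CD14, the lipopolysaccharide coreceptor of monocytes, had 8 counts in DMSO and 382 in periplocin, and CD86, a costimulatory molecule, had 8 and 416. These were the largest rises of the list. Other markers moved by less than 2-fold, CD33 (1352 and 760 counts) and LYZ (3962 and 2752) as lower and SPI1 (3702 and 4377) as higher. CD163 was at the floor in DMSO. The erythroid markers summed to 251 and 242 CPM with 6 and 7 of 12 at the floor, and the megakaryocyte markers to 4.43 and 5.74 CPM. Of the erythroid sums, TFRC alone had 246 and 239.6 CPM. The part of these markers' cells in the receptor differences was not tested.

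In K562, 2 of the 10 genes passed in periplocin against DMSO, EPOR as higher and CSF3R as lower. Of all 15901 genes tested in K562, 18.3% passed, 8.18% as higher and 10.1% as lower, and 32.5% differed by at least 2-fold whatever their p. Only 5 of the receptor genes were above the floor in at least 1 of the K562 libraries, and the other 5 can give no fold change at this depth.

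EPOR had 305 counts, 18.6 CPM, in K562 DMSO and 953 counts, 57.5 CPM, in K562 periplocin. It was 3.07-fold higher (2.69 to 3.50), a log2 fold change of 1.62 (SE 0.09) with an adjusted p of 2.7e-74 by the edgeR exact binomial test. RGL3, with which it shares 2 exonic bp, had 80 and 86 counts in these libraries. Erythroid marker genes were higher in the same library, 11 of 12 by the test, and their summed level was 2796 CPM in DMSO and 12457 CPM in periplocin. Among them SLC4A1, the band 3 anion exchanger of the red cell, was 17.6-fold higher and ALAS2, the erythroid enzyme of heme synthesis, 7.14-fold higher. Of the megakaryocyte markers, 2 of 5 tested were higher and 1 lower, and their summed level was 86.5 CPM in DMSO and 259.7 CPM in periplocin, most of it from the platelet glycoprotein gene GP1BB, which was 3.38-fold higher. Among 9 monocyte and macrophage markers tested, 3 were higher and 2 lower, with a summed level of 115 and 141 CPM, CD14 going from 1 count to 69 and CD33, a myeloid surface molecule, being lower with 362 and 127 counts. The share of counts on mitochondrial genes was lower in the same library, and the part of any of these in the receptor differences was not tested.

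CSF3R had 84 counts, 5.13 CPM, in K562 DMSO and 12 counts, 0.725 CPM, in periplocin, and was 7.13-fold lower (3.87 to 14.3, edgeR exact binomial test, adjusted p = 2.9e-14). IGF1R had 1036 counts, 63.2 CPM, and 913 counts, 55.1 CPM, a ratio of 0.865 (0.791 to 0.947, adjusted p = 0.00301 in the edgeR test) and thus a difference under 2-fold. KIT had 47 counts, 2.87 CPM, and 63 counts, 3.80 CPM, a ratio of 1.32 with an interval from 0.888 to 1.96. CSF3R was therefore the one receptor gene that passed as lower in both lines. CSF2RB, at 5 and 6 counts, had a ratio of 1.18 whose interval from 0.300 to 4.88 shows nothing about a difference. The counts in DMSO and periplocin were 3 and 3 for CSF1R, 1 and 1 for CSF2RA, 0 and 0 for IL3RA, 0 and 2 for FLT3 and 1 and 0 for PDGFRB, so that a change in these genes was not detectable at this depth.

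**Figure D2:**
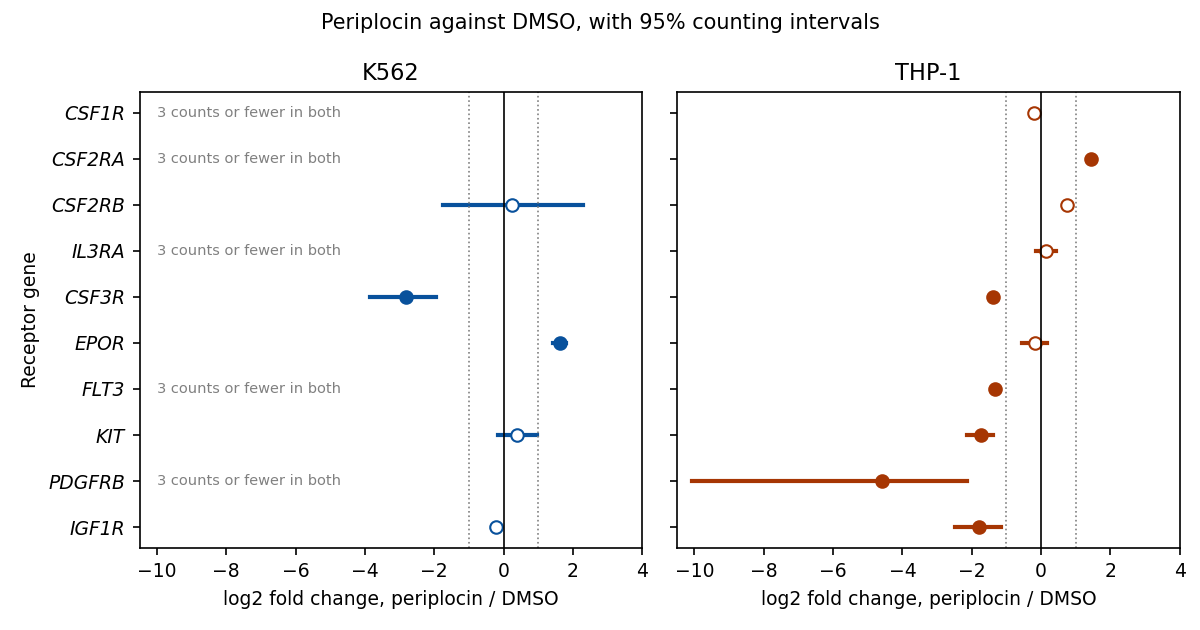
Log2 fold change of each receptor gene in periplocin over DMSO in K562 (left) and THP-1 (right), with exact 95% counting intervals. Filled points passed the edgeR test at 2-fold or more, open points did not, and dotted lines mark 2-fold; 2 genes passed in K562 and 6 in THP-1, with CSF3R lower in both.

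The third question was whether the lines differed in their response, which was tested directly with the exact conditional test of the ratio of ratios over the 4 libraries. Of the 10 genes, 5 had more than 3 counts in a library of each line, and 4 of these differed, against 18.5% of 14725 genes tested (9.83% with a THP-1 response above that of K562 and 8.68% below it). The 14725 genes needed only at least 1 count in each line, so the shares rest on unlike filters and are not directly comparable. The response of THP-1 minus that of K562 was -2.15 on the log2 scale for KIT (95% interval -2.80 to -1.49, adjusted p = 6.5e-10), which was lower with the drug in THP-1 and did not pass in K562. It was -1.81 for EPOR (-2.22 to -1.40, adjusted p = 1.2e-17, exact conditional test), which was higher in K562 and did not pass in THP-1. For IGF1R it was -1.59 (-2.22 to -0.96, adjusted p = 4.5e-07, exact conditional test), and for CSF3R 1.43 (0.55 to 2.31, adjusted p = 0.00112, exact conditional test). CSF3R thus was lower in both lines, and by more in K562. For CSF2RB the difference was 0.51 with an interval from -1.21 to 2.22, which the 5 and 6 counts in K562 make too wide to read.

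A fit over the 4 libraries with line and treatment as terms tested the average effect of treatment across the lines, with 1 residual degree of freedom. Its error is the disagreement of the lines in their response, so the lines take the place of replicates. This fit does not test whether the responses were alike. It tested 9 of the receptor genes and called 0 of them by the edgeR quasi-likelihood test, and 0.0% of all 13568 genes. At an unadjusted p under 0.05 this edgeR fit held 2 receptor genes, CSF3R (log2 fold change -1.94, adjusted p = 0.340) and CSF2RA (1.34, adjusted p = 0.384), and 11.4% of all genes. DESeq2 with the same terms called 1 receptor gene, CSF3R, at an adjusted p of 0.0499, and 125 of all genes.

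Levels of different genes can be compared only per length, and were taken as CPM per kb of the union of annotated exons. In THP-1 DMSO the order was CSF1R at 29.1, FLT3 at 25.4, CSF3R at 13.3, CSF2RB at 10.5, CSF2RA at 8.72, IL3RA at 6.04, KIT at 2.54, EPOR at 2.25, IGF1R at 0.369 and PDGFRB at 0.211 CPM per kb. In THP-1 periplocin CSF1R still came first at 25.0 CPM per kb, followed by CSF2RA at 23.6, CSF2RB at 17.5, FLT3 at 10.1, IL3RA at 6.57, CSF3R at 5.07, EPOR at 1.96, KIT at 0.751, IGF1R at 0.105 and PDGFRB at 0.00791. CSF2RA went from the fifth place to the second and CSF3R from the third to the sixth. With one library per condition, the neighbors in either order have no spread between samples to be set against. With the longest transcript as the length, 4 genes took another place in each THP-1 library, and CSF2RA then came before CSF1R in periplocin. The place of CSF2RA also depends on the summing of its paired rows.

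In both K562 libraries EPOR and IGF1R were first and second, at 6.05 and 4.54 CPM per kb in DMSO and at 18.7 and 3.95 CPM per kb in periplocin. CSF3R followed at 0.608 CPM per kb in DMSO and KIT at 0.516, whereas in periplocin KIT had 0.684 and CSF3R 0.0860 CPM per kb. EPOR took up 51.1% of the summed per-length level of the 10 genes in K562 DMSO and 79.3% in K562 periplocin. In THP-1 the highest gene, CSF1R, took up 29.5% and 27.6%. The sum itself was 11.8 CPM per kb in K562 DMSO and 23.6 in K562 periplocin, against 98.4 and 90.8 in the THP-1 libraries.

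**Figure D3:**
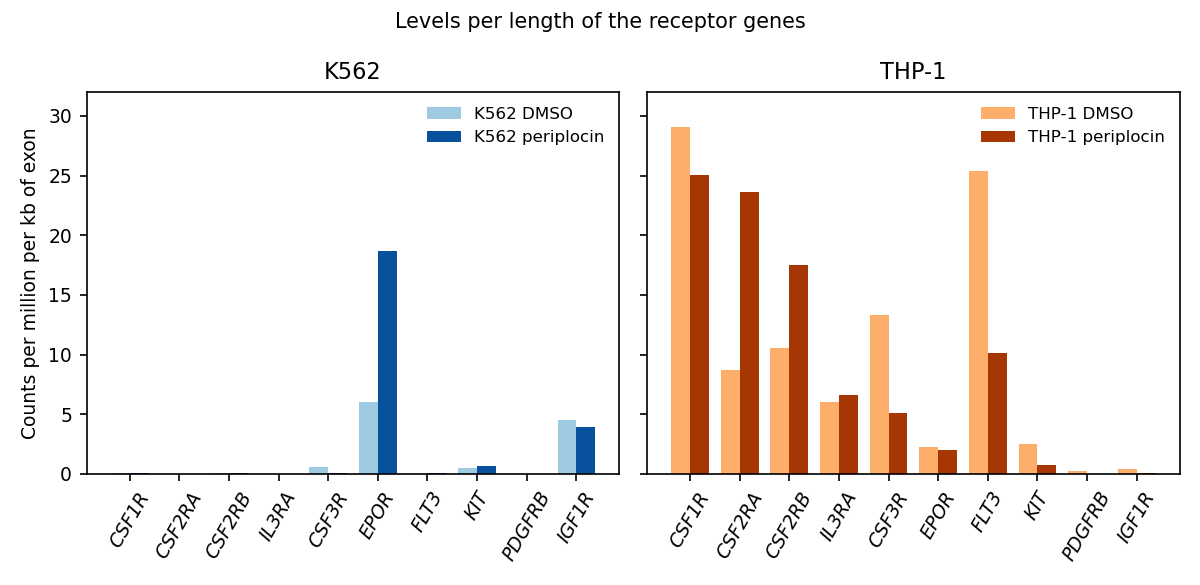
Level of each receptor gene in CPM per kb of exon, in K562 (left) and THP-1 (right), DMSO in light and periplocin in dark bars, 1 library each and without error bars. EPOR is the highest bar in K562 at 6.05 and 18.7, and in THP-1 periplocin CSF2RA, at 23.6, stands next to CSF1R at 25.0.

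Some ligands of these receptors were at or near the floor in every library, and others were well above it in a line. Of 12 ligand genes, IL3, IL34, CSF3, EPO and IGF2 had 3 counts or fewer in every library, and 1 ligand passed in each line, 1 of 11 tested in K562 and 1 of 8 in THP-1 against 18.3% and 18.0% of all genes. In THP-1, CSF1, the gene of M-CSF that binds CSF1R, had 37 counts in DMSO and 129 in periplocin, a ratio of 4.09 (2.82 to 6.07, edgeR exact binomial test, adjusted p = 4.4e-16). KITLG, the gene of stem cell factor, had 320 and 184 counts, a ratio of 0.675 (0.560 to 0.811) that stayed under 2-fold. CSF1 was thus higher in the library in which its receptor gene moved by less than 2-fold, and KITLG had fewer counts in the library in which KIT was lower. The other THP-1 ligands were FLT3LG with 33 and 22 counts, PDGFD with 239 and 193 and IGF1 with 5 and 5, none of which passed.

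In K562, PDGFB, which encodes the ligand of PDGFRB, had 37 counts in DMSO and 133 in periplocin, a ratio of 3.53 (2.44 to 5.23, edgeR exact binomial test, adjusted p = 4.9e-13). IGF1 had 1573 and 1287 counts, a ratio of 0.803 (0.746 to 0.865), and CSF1 had 477 and 437, a ratio of 0.900 (0.788 to 1.03). FLT3LG had 48 and 51 counts, and CSF2 and PDGFD each had 4 counts in DMSO and 0 in periplocin. K562 therefore held IGF1 together with IGF1R, whereas it held CSF1 and PDGFB with their receptor genes at the floor.

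Other receptors of the same classes numbered 13. In K562, 2 of 9 tested passed, both as lower, and the named one was INSR, the insulin receptor gene, with 121 and 59 counts and a ratio of 0.479 (0.345 to 0.659). In THP-1, 4 of 13 were higher and 2 lower, against 18.3% of all genes called in K562 and 18.0% in THP-1. CRLF2, the receptor of thymic stromal lymphopoietin and, like CSF2RA and IL3RA, a pseudoautosomal gene, had 27 counts in DMSO and 176 in periplocin, a ratio of 7.65 (5.08 to 11.9). LEPR, the leptin receptor gene, had 332 and 621 counts, a ratio of 2.19 (1.92 to 2.51), and PRLR, the prolactin receptor gene, had 342 and 83, a ratio of 0.285 (0.221 to 0.363). The other calls, named after their values were seen, rest on few counts: INSRR with 29 and 11 in K562, and in THP-1 GHR with 18 and 2, PDGFRA with 2 and 12 and FLT1 with 1 and 7. Cytokine receptor genes outside the growth factor receptors were therefore found on both sides in THP-1.

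Signal transducers gave 7 calls in K562 and 0 in THP-1, a difference between lists that was not tested. In K562, 4 of 25 passed as higher and 3 as lower, 28.0% against 18.3% of all genes, with a median log2 fold change of -0.30 among those with at least 1 CPM, against -0.01 for all genes. In THP-1, 0 of 25 passed in the edgeR exact binomial test at 2-fold, and the median was 0.08 against -0.02 for all genes. The contrast depends on the 2-fold threshold, as genes picked after their values were seen show. In THP-1, PIK3R1 (log2 fold change 0.95), LYN (0.90) and STAT3 (0.89) fell just short as higher, and the lowest was IRS1 (-0.69). Each had an adjusted p under 0.05 in that edgeR test. In K562, PLCG1 (1.01) and JAK1 (-1.03) lay just past the threshold. Among the K562 transducers, JAK2, the kinase of EPOR, was higher with 1297 and 3508 counts, a ratio of 2.66 (2.49 to 2.83), and JAK1 lower with 3432 and 1708, a ratio of 0.489 (0.461 to 0.518). STAT5A had 12851 and 3800 counts, a ratio of 0.290 (0.280 to 0.301), and the docking protein gene GAB2 had 6293 and 1836, a ratio of 0.287 (0.272 to 0.302). PIK3R2, a regulatory subunit of phosphoinositide 3-kinase, had 892 and 2155 counts, a ratio of 2.37 (2.19 to 2.57), and PLCG1, a phospholipase, 962 and 1967, a ratio of 2.01 (1.86 to 2.17). The remaining one, FES, a tyrosine kinase below 5 CPM and named after its value was seen, had 15 and 31 counts. Higher EPOR and JAK2 thus stood beside lower STAT5A in the same library.

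Of the negative regulators, 1 of 17 tested was higher and 3 lower in K562, and 1 of 18 was higher and 2 lower in THP-1. These are 23.5% and 16.7% of the list, near the 18.3% and 18.0% of all genes. In K562 SOCS1, which inhibits Janus kinases, had 336 and 124 counts, a ratio of 0.362 (0.293 to 0.447), and SH2B3, the adaptor that restrains JAK2 and KIT, had 3783 and 1790, a ratio of 0.465 (0.439 to 0.492). PTPN6, a phosphatase of cytokine receptors, had 122 and 56 counts, a ratio of 0.451 (0.322 to 0.623), and SOCS5 had 376 and 796, a ratio of 2.08 (1.84 to 2.36). In THP-1 the higher one was SOCS3, the inhibitor of CSF3R and related receptors, with 63 and 265 counts, a ratio of 4.93 (3.74 to 6.60). The lower ones, SOCS2 and SLA2, averaged under 5 CPM and were named after their values were seen, with 159 and 18 counts and with 44 and 1. The median log2 fold change of the list was -0.60 in K562 and 0.27 in THP-1.

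Transcription factors known to act on receptor genes passed in 7 of 14 cases in K562, 2 as higher and 5 as lower, against 18.3% of all genes. The higher ones were the erythroid factors KLF1, with 1428 and 4883 counts and a ratio of 3.36 (3.17 to 3.56), and TAL1, with 3350 and 7895 and a ratio of 2.31 (2.22 to 2.41). Lower were EGR1 with 2182 and 467 counts and a ratio of 0.210 (0.190 to 0.232), RUNX1 with 2855 and 770 and a ratio of 0.265 (0.244 to 0.287), and MYB with 8071 and 2592 and a ratio of 0.315 (0.302 to 0.330). CEBPB, a factor of myeloid genes, had 1429 and 525 counts, a ratio of 0.361 (0.326 to 0.399), and CEBPA, named after its value was seen, had 23 and 7. KLF1, an erythroid marker as well, was thus higher in the library in which EPOR was higher.

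In THP-1, 3 of these 14 factors passed, all as lower, which is 21.4% against 18.0% of all genes. IRF8, a factor of monocyte development, had 12161 and 4323 counts, a ratio of 0.417 (0.403 to 0.432). GATA2, a factor of progenitors, had 306 and 98 counts, a ratio of 0.376 (0.296 to 0.473), and EGR1 had 339 and 130, a ratio of 0.450 (0.365 to 0.552). MYB, named here after its value was seen, was lower as in K562 but fell just short of 2-fold. It had 12669 and 5441 counts, a ratio of 0.504 (0.488 to 0.520). Singled out after their values were seen, because their motifs were searched above, SPI1, the gene of PU.1, had 3702 and 4377 counts in THP-1 (log2 fold change 0.47), and GATA1 had 2715 and 4959 in K562 (0.84). Neither reached 2-fold.

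STAT5 target genes, many of which respond to cytokine receptors, passed in 2 of 9 cases in K562, both as lower, and in THP-1 3 were higher and 1 lower. Of all genes, 18.3% passed in K562, near the 22.2% of this list, and 18.0% in THP-1, where the list had 44.4%. In K562 the lower ones were SOCS1, given above, and PIM2, a survival kinase, with 8626 and 2333 counts and a ratio of 0.266 (0.254 to 0.278). In THP-1 the higher ones were SOCS3, given above, PIM1 with 205 and 392 counts and a ratio of 2.24 (1.89 to 2.67), and MCL1, an antiapoptotic gene, with 7573 and 13703 and a ratio of 2.12 (2.06 to 2.18), and the lower one was SOCS2. The medians were -0.77 on the log2 scale in K562 and 0.09 in THP-1.

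**Figure D4:**
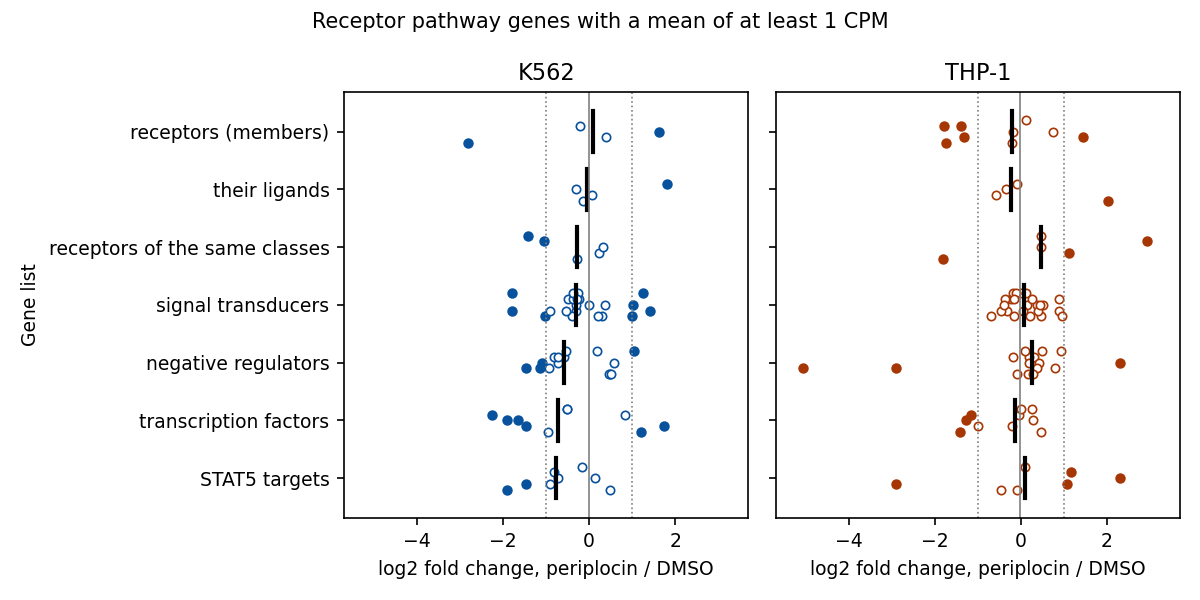
Log2 fold change in periplocin over DMSO of the receptor genes and 6 lists of pathway genes averaging 1 CPM or more, in K562 (left) and THP-1 (right). Filled points passed the edgeR test at 2-fold or more, black bars are list medians and the grey line is the median of all genes; in K562 the transcription factors have a median of -0.73 and the STAT5 targets one of -0.77, against -0.12 and 0.09 in THP-1.

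For the 9 receptor genes that averaged 5 CPM or more over the libraries, the genes with the most similar profile were sought among 11011 genes by the root mean square difference of log2(CPM + 0.5), centered over the libraries. With 4 points that share their libraries, such likeness is a description only. Nearest to CSF1R were NCAM1, a cell adhesion molecule (0.04 log2 units), and IGFBP7 (0.06). Nearest to IL3RA were HLA-DQB1, a class II histocompatibility gene (0.01), and UBE2C (0.03). CSF2RB was nearest to CYSLTR1, a leukotriene receptor gene (0.04), and C16orf54 (0.06), and CSF2RA to MYOF (0.13) and AGT (0.17). These genes share with the receptors a level close to 0 in K562 or low there, which sets most of their profile.

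FLT3 was nearest to RHOU (0.12) and NREP (0.15), and among the genes nearest to KIT was DENND6B (0.16). EPOR was nearest to TFRC, itself among the erythroid markers, the transferrin receptor gene that supplies red cell precursors with iron (0.10), and NHLRC4 (0.11). TFRC had 641 and 1741 CPM in K562 DMSO and periplocin and 246 and 239.6 CPM in the THP-1 libraries. As for EPOR, both K562 libraries lay above both THP-1 libraries, and the K562 periplocin library was the highest. IGF1R was nearest to DYRK1B (0.16) and GATA2 (0.18). CSF3R had the least similar neighbors, CPLANE1 (0.15) and C5, a complement gene (0.31).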

How the data were processed

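The authors extracted RNA with TRIzol, enriched poly-A RNA and had 150 bp paired-end reads sequenced. The submitters' processing notes name HISAT2, StringTie 1.3.1 and hg38. The library kit does not mark strand. The authors deposited an expected count per gene and library, not normalized, whose counting program is not given in the sources used here. Symbols were paired with 20310 of 20348 identifiers, and 20118 were found in GENCODE release 29 on GRCh38, from which positions and exon lengths were taken.

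Expected counts were rounded, and the 18 pseudoautosomal pairs of rows, which repeat the same values, were summed, a choice made after seeing the data. Within each pair of libraries edgeR 4.0.16 gave TMM factors and its exact binomial test (dispersion 0, prior count 0.125) for genes with at least 1 count. Two-sided p-values received a Benjamini-Hochberg adjustment over all genes tested. Genes were called at an adjusted p under 0.05 and a log2 fold change of at least 1. Ratios have exact 95% Clopper-Pearson intervals. Responses were compared by the exact conditional test, and the 4 libraries were fitted by edgeR's quasi-likelihood test and DESeq2 1.42.0 for genes with at least 10 counts in 2 libraries. Each procedure was tested on simulated data as a check of the code, with changes set in genes well above the floor. For the pair and conditional tests the simulated counts held counting error only. Variation between cultures was therefore not examined by it. R 4.3.3, Python 3.11.15 and scipy 1.17.1 were used, and 0 columns were left unused.

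The members and lists were chosen with earlier results of these data known. Named are all 10 receptor genes, the ligands above 3 counts, up to 6 called genes per list and line with a mean of at least 5 CPM, and the 2 genes of nearest profile per receptor gene. 1 gene of nearest profile is not reported here. Flow cytometry, quantitative PCR and western blots were not analysed here. Intervals and floors cover counting error only, and PCR copies are not independent molecules.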

Additional observations from a re-analysis of the deposited data

Results flagged for a closer look

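In 4 receptor genes the response to periplocin differed between the lines by the exact conditional test of the difference itself, with 1 library per condition. The response in THP-1 minus that in K562 was 1.43 on the log2 scale for CSF3R, which was lower in both lines and by more in K562, where it rests on 84 and 12 counts. It was -2.15 for KIT, which was lower in THP-1 and had 47 and 63 counts in K562, and -1.59 for IGF1R, which was lower in THP-1 and differed by less than 2-fold in K562. For EPOR it was -1.81, and there the K562 periplocin library, with 953 counts against 107 to 305 in the others, stands apart. The adjusted p-values are given with the comparison of the lines, and whether the differences would recur in other cultures was not tested.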

How the results depend on the processing

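No replicate could be left out, since each condition has 1 library, and the fit over the 4 libraries is the one that pairs treatment within a line. A biological dispersion cannot be estimated within a line, so dispersions were set. At 0.04 the receptor genes called stayed at 2 in K562 and 6 in THP-1, while the calls in the pathway lists fell from 22 to 13 (K562) and from 15 to 9 (THP-1). At 0.16 the receptor genes called were 0 in K562 and 0 in THP-1, where edgeR's adjusted p lay between 0.128 (PDGFRB) and 1, and the list calls were 0 and 1. In the DMSO comparison EPOR was then lost (adjusted p = 0.384, edgeR), leaving 9 of 10. For the test of the difference in response between the lines no dispersion was set. Only its scaling was varied, which left 4 receptor genes, so those calls rest on counting error alone. A log2 fold change of at least 2 left 1 receptor gene in each line, CSF3R in K562 and PDGFRB in THP-1, and 1 and 8 list calls. Without a fold threshold there were 55 and 57 list calls. DESeq2 in place of edgeR's quasi-likelihood test called 1 receptor gene in place of 0. With the longest transcript as length, 4 receptor genes took another place in either THP-1 library (4 with DMSO, 4 with periplocin) in the order of levels. Of 248 values of single receptor genes under the alternatives, 230 kept direction and side of the threshold, 15 lost the call, 3 gained it and 0 changed direction. Dispersion, filter and fold threshold do not enter the log2 fold change, so under those settings its direction could not change. Keeping the pseudoautosomal copies apart, an alternative chosen after seeing the data, changed no call of a receptor gene. Total counts in place of TMM shifted the median gene by -0.12 (log2) between the DMSO libraries, and by less than 0.1 within each line. A change in the 5 receptor genes with 3 counts or fewer in both K562 libraries was not detectable.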

Other observations

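Several pathway genes outside the naming rule were picked out after their values were seen. In K562 the STAT5 targets were divided, with CISH at 3007 counts in DMSO and 4320 in periplocin (log2 fold change 0.50, SE 0.03) beside SOCS2 at 6071 and 3749 (-0.72, SE 0.03), neither of which reached 2-fold, and STAT5B, the other STAT5 gene, at 5491 and 6861 (0.30, SE 0.03). CEBPA, a factor of the CSF3R promoter, had 6492 and 4798 counts in THP-1 (log2 fold change -0.21, SE 0.03), and its change in K562 was -1.72 (SE 0.62) on fewer counts. In THP-1, CISH had 211 and 170 counts (-0.08, SE 0.15), while SOCS2 had a log2 fold change of -2.90 (SE 0.36).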
